A study of Mus musculus with 96 samples.

Results

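Hepatocytes of mice labelled RevScapTKO were compared with hepatocytes of Control mice over a whole day, to see which pathways differed from Control when the repressors REV-ERBα and REV-ERBβ of the clock and the SREBP escort protein SCAP were targeted together, and which pathways stayed at the Control level. The comparison used every library with these labels in the hepatocyte table, 12 RevScapTKO and 12 Control, which is 24 of the 96 libraries of the series. The mice were males of the C57BL/6J strain given virus at 8 weeks of age and fed for 4 weeks with a diet rich in fat and sucrose. They were kept in 12 h of light and 12 h of darkness, and livers were taken at ZT (zeitgeber time, counted in hours from lights on) 4, 10, 16 and 22, with 3 libraries for each genotype and time. Control mice carried floxed alleles of both Rev-erb genes and received an adeno-associated virus that encodes GFP. RevScapTKO mice carried floxed alleles of both Rev-erb genes and of Scap and received the same kind of virus encoding Cre recombinase, and RevDKO mice, set beside them in a few places, carried the floxed Rev-erb genes alone and received Cre. The thyroxine-binding globulin promoter, which is active in hepatocytes, drove GFP and Cre, so other liver cells were not targeted. Hepatocytes had been separated by perfusion with collagenase and low-speed spins, according to the methods of the study, while the extraction text of the labels speaks of liver tissue.

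REV-ERBα (Nr1d1) and REV-ERBβ (Nr1d2) are nuclear receptors that repress Arntl, which encodes BMAL1, and other genes with ROR response elements, and so link the core clock to metabolism. SREBP transcription factors (Srebf1 and Srebf2) are made as precursors in the endoplasmic reticulum membrane. SCAP carries them to the Golgi, where proteases release the active part, unless sterols make INSIG proteins hold SCAP back. In liver, SREBP-1c chiefly drives fatty acid synthesis, and SREBP-2 drives cholesterol synthesis and uptake.

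Levels are given as RPKTM, read numbers scaled by transcript length and library size and quantile normalised by the authors, with 1 transcript per gene. Differences are RevScapTKO minus Control on the log2(RPKTM + 1) scale, averaged over the 4 times of day, which understates the change of low genes. They were tested with limma across 13119 genes that exceeded 5 RPKTM in at least 3 of the 24 libraries. A gene was called where its adjusted p was under 0.05. A gene that was not called was placed at the Control level where the 95% interval of its difference lay inside a 1.5-fold change in either direction (0.585 on the log2 scale), and was undecided otherwise. Of the 13119 genes, 4500 (34.3%) were called, of which 2209 (16.8%) rose and 2291 (17.5%) fell, while 5673 (43.2%) were at the Control level and 2946 (22.5%) were undecided. Among called genes, 531 rose and 419 fell by more than 1 log2 unit, while 518 had intervals inside the 1.5-fold margin. The median difference over all genes was -0.03. The depth of the libraries cannot be read from quantile-normalised values, so precision rests on the spread between libraries, and whether the 3 libraries of a group came from separate mice is not stated in the labels.

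The targeted genes were read first. Scap (NM_001103162, mm9 chr9:110235792-110287453, plus strand) ranged from 395 to 698 RPKTM with a median of 494 in the Control libraries and from 82.8 to 299 with a median of 210 in the libraries labelled RevScapTKO. All 12 of the latter lay below all 12 Control libraries, and Scap fell by 1.30 ± 0.15 (SE) on the log2 scale (limma adjusted p = 1.4e-06). Nr1d1 (NM_145434, mm9 chr11:98629246-98636691, minus strand) went the other way, from 3.57 to 358 RPKTM with a median of 45.9 in Control and from 51.2 to 231 with a median of 131 in RevScapTKO, and it rose by 1.79 ± 0.26 (limma adjusted p = 2.6e-05). Nr1d2 (NM_011584, mm9 chr14:19036570-19071620, minus strand) rose by 0.95 ± 0.14 (limma adjusted p = 3.9e-05). Control was lowest in the dark phase: at ZT22 Nr1d1 measured 8.28 ± 6.89 RPKTM (SD, n = 3) in Control and 121 ± 77.3 in RevScapTKO, against 257 ± 128 and 195 ± 49.5 at ZT4. The values sum over whole transcripts and the deleted exons are not given in the sources used here, so they do not check the deletion itself, and the 3′ end of Nr1d1 overlaps Thra on the other strand. The mean level of Nr1d1 and Nr1d2 thus rose in the libraries labelled as their knockout, whereas the study reports relative mRNA of both as markedly reduced in hepatocytes. In RevDKO 1 of the 3 targeted genes was called higher against Control and none lower. Every direction below is that of the libraries labelled RevScapTKO.

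Markers of other liver cells were higher in RevScapTKO, against 16.8% of all genes higher. All 12 Kupffer cell and macrophage markers rose, by 0.97 to 2.01 on the log2 scale, and the summed level of the list ranged from 259 to 3449 RPKTM in Control and from 1030 to 6879 in RevScapTKO. Clec4f, a lectin of Kupffer cells, ranged from 62.0 to 678 RPKTM with a median of 231 in Control and from 223 to 1704 with a median of 766 in RevScapTKO, so the groups overlapped. Also higher were 7 of 9 endothelial markers (summed level 511 to 2730 in Control, 1305 to 3233 in RevScapTKO), 6 of 8 tested stellate cell and fibroblast markers (250 to 1874 and 1466 to 3532), 5 of 6 tested markers of recruited and lipid-associated macrophages (43.5 to 299 and 94.1 to 493) and both tested cholangiocyte markers (29.6 to 83.4 and 60.5 to 296). The stellate cell gene Reln was above the highest Control library in all 12 RevScapTKO libraries. No T, NK or B cell marker passed the filter. Of 12 hepatocyte markers none rose, 3 fell (Apoa2, Cyp2e1 and Fabp1), 4 were at the Control level, among them Hnf4a, and 5 were undecided. The shares over all genes were 16.8%, 17.5%, 43.2% and 22.5%. Alb, a member of this list, stood at rank 1, 2 or 5 of the values in every library. Quantile normalisation thus held it to a few repeated values, which carry little information. In bulk libraries, more cells of a type and more RNA per cell cannot be told apart. The macrophage marker score, the mean log2 level of those 12 genes, was also higher at the later times in both genotypes, and with it as a covariate the calls numbered 147 higher (1.12%) and 334 lower (2.55%). The corresponding score of endothelial and stellate markers left 70 higher (0.534%) and 177 lower (1.35%). These scores differ between the genotypes, and the median distance from a difference to the end of its 95% interval went from 0.317 to 0.468 and 0.537 with them. With them 1 of the hepatocyte markers was called, higher, under the macrophage score, and none under the other. Library RevScapTKO ZT4 replicate 2 and library RevScapTKO ZT22 replicate 2 had the lowest median correlations with their own genotype (0.917 and 0.933, against 0.938 to 0.964 for the other 22). Without this pair 1972 genes rose (15%) and 2008 fell (15.3%), and without ZT4, the time with the most calls, 1533 rose (11.7%) and 1596 fell (12.2%).

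Genes were grouped into 40 pathway lists. Every measured gene of cholesterol synthesis and of the PPARα omega-oxidation and thioesterase list was lower. At the other end, 16 of 22 complement and coagulation genes, 8 of 14 iron and heme genes and 7 of 12 insulin and growth factor signalling genes were at the Control level. The lists were drawn up with results of these data known, so their counts are descriptions, to be read against the shares over all genes.

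**Figure D1:**
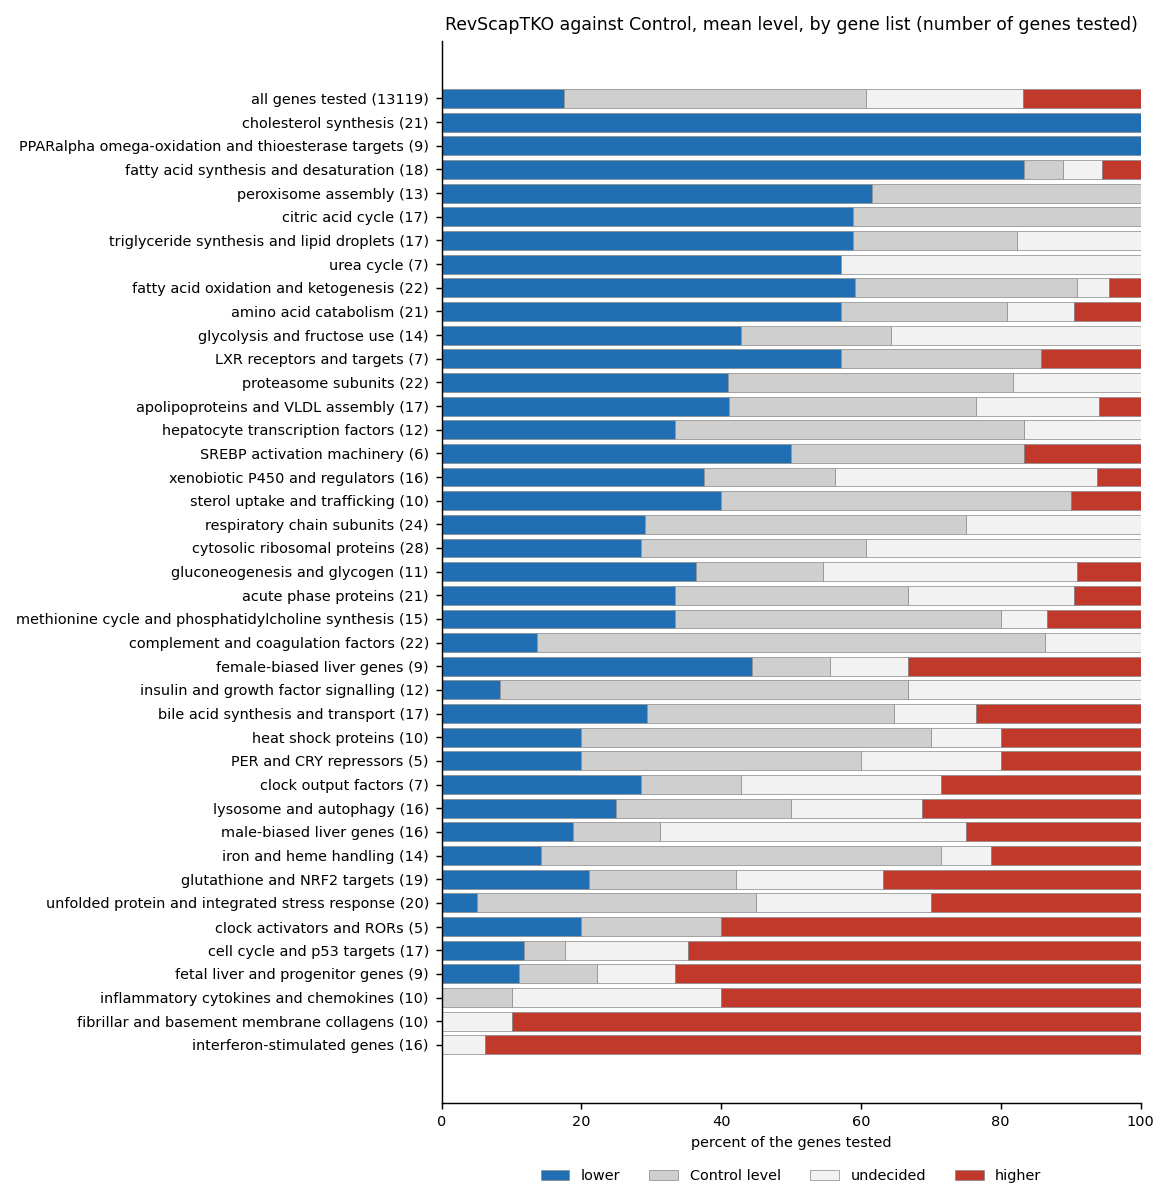
Share of the tested genes of each pathway list, in percent, that were lower than Control, at the Control level, undecided or higher in RevScapTKO, with all 13119 genes as the top bar. Cholesterol synthesis is lower throughout (21 of 21 genes), and interferon-stimulated genes are nearly all higher (15 of 16).

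Of the 6 genes of the SREBP activation list 3 fell, 1 rose and 2 were at the Control level, against 17.5%, 16.8% and 43.2% of all genes. Srebf1 (NM_001313979, mm9 chr11:60012586-60034129, minus strand) ranged from 1220 to 4734 RPKTM with a median of 2123 in Control and from 74.0 to 440 with a median of 93.0 in RevScapTKO. No RevScapTKO library reached the lowest Control library, and Srebf1 fell by 4.26 ± 0.21 on the log2 scale (limma adjusted p = 7.6e-13). Srebf2 fell by 1.63 ± 0.12, from a median of 265 to 77.3 RPKTM, with 11 of 12 libraries below the lowest Control library. Insig1, which encodes an ER retention protein for SCAP and is itself an SREBP target, had medians of 1251 and 75.2 RPKTM and fell by 4.05 ± 0.19 (limma adjusted p = 2.2e-13). Its relative Insig2, which SREBP does not drive in liver, rose by 0.40 ± 0.14 (limma adjusted p = 0.036), from a median of 755 to 858 RPKTM with overlapping libraries, and with the macrophage score as a covariate its difference was 0.62 (limma adjusted p = 0.15). The genes of the Golgi proteases that cut SREBP were at the Control level, Mbtps1 at 0.16 (interval -0.08 to 0.40) and Mbtps2 at 0.26 (-0.05 to 0.58).

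**Figure D2:**
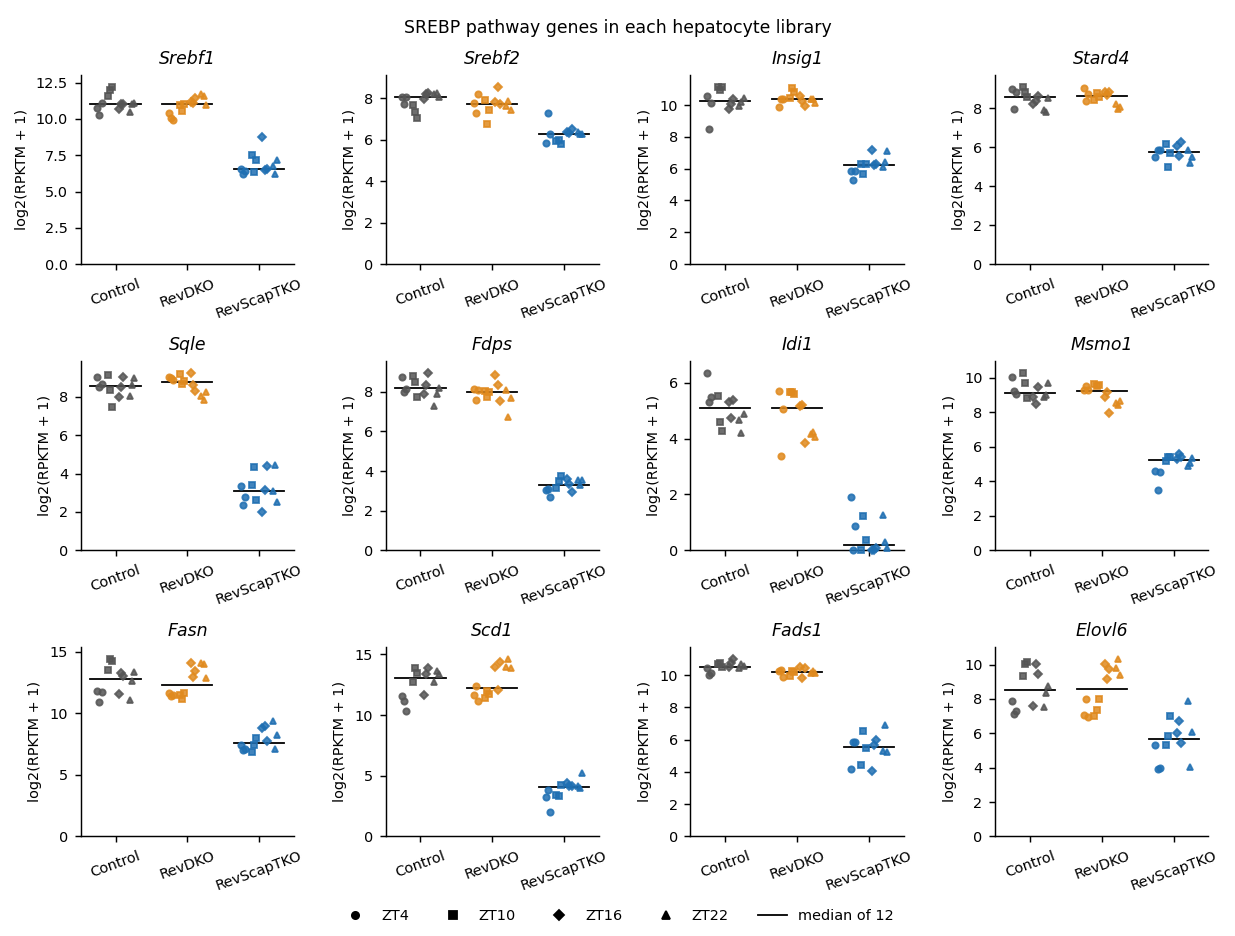
Levels of 12 genes of SREBP activation, sterol transport, cholesterol synthesis and fatty acid synthesis in each library, as log2(RPKTM + 1) on the vertical axis, for Control, RevDKO and RevScapTKO, with the marker showing the ZT and the line the median of 12 libraries. Control and RevDKO libraries overlap in every panel, while RevScapTKO libraries lie lower, for Scd1 at 3.07 to 37.2 RPKTM against 1330 to 15272 in Control. For Srebf2 they are not fully separated from Control.

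All 21 genes of cholesterol synthesis fell, with differences from -0.64 to -5.33 and a median of -2.60, against 17.5% of all genes lower and a median of -0.03. Each had the same sign at all 4 times. The largest fall was that of Sqle (squalene epoxidase), which ranged from 178 to 565 RPKTM with a median of 377 in Control and from 3.04 to 20.6 with a median of 7.60 in RevScapTKO, a difference of -5.33 ± 0.27 (limma adjusted p = 1.2e-12). Fdps, which makes farnesyl diphosphate, had medians of 289 and 8.97 RPKTM and fell by 4.92 ± 0.15 (limma adjusted p = 2.2e-16). Idi1, the isomerase ahead of it, had medians of 33.6 and 0.141 RPKTM, and Msmo1, a sterol demethylase, 560 and 36.2. In these 4 genes no RevScapTKO library overlapped the Control libraries. The smallest changes were at late steps: Lbr, which doubles as a nuclear envelope protein, at -0.64 ± 0.12 and Ebp at -0.98 ± 0.19. Hmgcs1 was read low in every library, at most 20.2 RPKTM, from a transcript with 2 copies in the table on an unplaced sequence, so its value is uncertain. With the macrophage score as a covariate 20 of the 21 genes still fell, with the endothelial and stellate score 19, and without the pair of libraries named above or without ZT4 all 21.

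The promoters of Sqle, Idi1 and Msmo1, 3 of the 4 genes just described, are shown to set the letters beside the levels, read from the mm9 genome as the 250 bases before the transcript start. In the cholesterol promoters the capitals mark the CCAAT box, letters CCAAT or ATTGG on the other strand, a site of NF-Y, which is known to act beside SREBP. The windows were chr15:59146397-59146646 (plus strand), chr13:8884602-8884851 (plus strand) and chr8:67212376-67212625 (minus strand), printed 5′ to 3′ along the gene.
Sqle: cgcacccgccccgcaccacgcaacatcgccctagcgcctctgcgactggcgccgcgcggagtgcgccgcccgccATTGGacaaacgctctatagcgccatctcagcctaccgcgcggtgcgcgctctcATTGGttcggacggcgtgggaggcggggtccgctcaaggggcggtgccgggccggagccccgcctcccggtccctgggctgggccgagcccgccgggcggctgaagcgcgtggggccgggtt
Idi1: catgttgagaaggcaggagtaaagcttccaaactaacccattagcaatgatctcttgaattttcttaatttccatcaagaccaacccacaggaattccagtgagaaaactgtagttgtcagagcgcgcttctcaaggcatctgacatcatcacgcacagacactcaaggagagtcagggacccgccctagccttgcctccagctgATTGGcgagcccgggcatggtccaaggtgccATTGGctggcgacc
Msmo1: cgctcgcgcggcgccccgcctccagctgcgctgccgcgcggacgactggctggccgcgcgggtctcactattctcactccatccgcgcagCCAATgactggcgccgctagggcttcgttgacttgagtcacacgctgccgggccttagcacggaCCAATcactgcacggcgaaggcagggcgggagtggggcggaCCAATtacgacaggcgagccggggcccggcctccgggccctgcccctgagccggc
Msmo1 held 3 CCAAT boxes in this window, and Sqle and Idi1 each held 2. Over the list, 16 of 20 promoters that could be read (80%) had at least 1 CCAAT box, against 36% of 13102 promoters of all genes tested and 40.2% of those of genes that fell. This share was not particular to the list. It was 77.8% in the omega-oxidation and thioesterase list, 100% in the 5 PER and CRY genes and 71.4% in the 7 clock output factors. It was 55.6% in fatty acid synthesis, 50% in sterol uptake, 40% in clock activators and RORs and 33.3% in SREBP activation. A strict sterol response element, TCACNCCAC on either strand, was in none of the 20 cholesterol synthesis promoters and in 0.969% of all. No match says only that these letters are not in this window. Of all promoters, 10045 began within 50 bases of an annotated start, and the shares describe letters rather than binding. For Msmo1 the annotation held no start under this symbol, so its window was not checked in that way.

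Fatty acid synthesis and desaturation followed, with 15 of 18 genes lower (median -2.49), 1 higher, 1 at the Control level and 1 undecided. Over all genes these shares were 17.5%, 16.8%, 43.2% and 22.5%. Scd1, the stearoyl-CoA desaturase that makes oleate (NM_009127, mm9 chr19:44468940-44482199, minus strand), showed the largest fall of any gene named here. It ranged from 1330 to 15272 RPKTM with a median of 8640 in Control and from 3.07 to 37.2 with a median of 15.6 in RevScapTKO, so the groups were far apart, and the ratio of the means was 540. Its difference was -8.81 ± 0.25 (limma adjusted p = 5.1e-17). Fads1, the delta-5 desaturase of polyunsaturated fatty acids, had medians of 1473 and 46.3 RPKTM and fell by 5.09 ± 0.26 (limma adjusted p = 9.2e-13). Fasn, fatty acid synthase, ranged from 1926 to 21193 RPKTM in Control and from 117 to 664 in RevScapTKO and fell by 4.79 ± 0.27 (limma adjusted p = 7.3e-12). Acacb, the mitochondrial acetyl-CoA carboxylase, fell by 3.73 ± 0.28, with all 12 libraries below Control.

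Other steps of the pathway moved less. Acly, which makes cytosolic acetyl-CoA, fell by 1.81 ± 0.17 and Elovl2, an elongase of long polyunsaturated chains, by 0.34 ± 0.11. Scd2, a desaturase that is low in adult liver, was the 1 gene that rose, from a median of 17.5 to 31.5 RPKTM (0.94 ± 0.19, limma adjusted p = 0.00085), and with the macrophage score as a covariate its difference was 0.58 (limma adjusted p = 0.36). Mlxipl, which encodes the carbohydrate-sensing factor ChREBP, was at the Control level with medians of 934 and 871 RPKTM and an interval of -0.55 to 0.13. Elovl3 was undecided, with medians of 1180 and 1752 RPKTM. In the fit with either covariate 14 genes fell and none rose.

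Genes of sterol uptake and transport split. Stard4, a cytosolic sterol carrier, fell by 2.78 ± 0.15 from a median of 376 to 53.9 RPKTM, and all 12 RevScapTKO libraries lay below Control. Other members stayed at the Control level, among them Scarb1, the HDL receptor (-0.02, interval -0.23 to 0.19), Lipa, the lysosomal acid lipase (0.01, -0.19 to 0.21), and Npc2, a lysosomal sterol carrier (-0.02, -0.26 to 0.23). Over the 10 genes, 4 fell, 1 rose and 5 were at the Control level, against 17.5%, 16.8% and 43.2% of all genes. Stard4 was not the largest fall of the list. The 1 that rose, the lipoprotein receptor Lrp1 (0.44 ± 0.16, limma adjusted p = 0.039), was not called without the pair of libraries named above, without ZT4 or with the macrophage score, where its difference was 0.05. With either covariate 3 of the 10 genes fell and none rose.

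Among genes of the sterol sensor LXR, Lpcat3, a lysophospholipid acyltransferase, fell from a median of 387 to 133 RPKTM with no overlap (interval of the difference -1.69 to -1.30, limma adjusted p = 5.4e-11), and this call was kept with either covariate. The receptor gene Nr1h3 (0.04, interval -0.19 to 0.28) and the cholesterol exporter gene Abca1 (0.02, -0.23 to 0.28) were at the Control level. The biliary sterol exporters fell, Abcg5 by 0.59 ± 0.15 and Abcg8 by 0.54 ± 0.17, as did the receptor gene Nr1h2, while the exporter Abcg1 rose by 0.35 ± 0.13. Of these 7 genes 4 fell and 1 rose, against 17.5% and 16.8% of all genes. With either covariate, or without ZT4, 1 fell (Lpcat3) and none rose.

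Triglyceride synthesis and lipid droplet genes fell in 10 of 17 tested cases, none rose and 4 were at the Control level (median -0.43). The shares over all genes were 17.5%, 16.8% and 43.2%. Gpam, the first acyltransferase of glycerolipid synthesis, fell by 1.09 ± 0.13 from a median of 2158 to 1069 RPKTM (limma adjusted p = 1.2e-06). G0s2, an inhibitor of adipose triglyceride lipase, fell by 1.76 ± 0.29 from 234 to 73.4, and Lipe, hormone-sensitive lipase, by 0.86 ± 0.13 from 50.6 to 26.9. Mogat1, a monoacylglycerol acyltransferase, fell by 1.80 ± 0.25 at a low level. The lipase gene Pnpla2 (-0.01, interval -0.33 to 0.31) and the acyltransferase genes Dgat1 (-0.20, -0.42 to 0.02) and Agpat3 (0.16, -0.04 to 0.36) were at the Control level. Given the macrophage score 6 genes fell, and with the endothelial and stellate score 2, Gpam and Plin3.

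Of 17 apolipoprotein and VLDL genes, 7 fell, 1 rose, 6 were at the Control level and 3 were undecided. The shares over all genes were 17.5%, 16.8%, 43.2% and 22.5%. Angptl8, a lipase inhibitor that responds to feeding, fell by 2.10 ± 0.35 from a median of 403 to 118 RPKTM, Tm6sf2, which acts in VLDL loading, by 0.94 ± 0.17 and Apoa2 by 0.85 ± 0.15. Apoa4 rose by 2.67 ± 0.41 (limma adjusted p = 5.8e-05), from a range of 265 to 1110 RPKTM in Control to 374 to 8942 in RevScapTKO, with 10 libraries above Control. Mttp, which loads lipid onto apolipoprotein B, was at the Control level with medians of 2491 and 2496 RPKTM (interval -0.28 to 0.18), and so were Apom and Apoh. With either covariate none of the 17 genes was called. Apob took repeated top values of the quantile scale in most libraries, so its value of 132037 RPKTM at the median of both groups carries little information.

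Targets of PPARα, the fatty acid sensor of liver, formed a further lower group. All 9 genes of the omega-oxidation and thioesterase list fell (median -1.89), against 17.5% of all genes, and all 9 had the same sign at every time. Cyp4a14, a fatty acid omega-hydroxylase (mm9 chr4:115158805-115168746, minus strand), ranged from 234 to 3121 RPKTM with a median of 1274 in Control and from 5.97 to 144 with a median of 46.1 in RevScapTKO. Its difference was -4.88 ± 0.45 (limma adjusted p = 4e-08), and that of Cyp4a10 was -4.49 ± 0.28 (limma adjusted p = 4e-11), both with no overlap between groups. The acyl-CoA thioesterases Acot3 and Acot1 fell by 4.16 ± 0.38 and 3.57 ± 0.30, from medians of 34.2 and 77.2 RPKTM to 0.504 and 3.97. Cyp4a and Acot genes sit in clusters of close copies, so reads may have been shared between members. Vnn1, a pantetheinase, fell by 1.89 ± 0.30, and Creb3l3 by 0.37 ± 0.10. With the macrophage score 7 of the 9 fell and with the endothelial and stellate score 5.

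Among the oxidation enzymes proper, the peroxisomal genes fell most: Acaa1b, a thiolase, by 2.84 ± 0.25 from a median of 1576 to 189 RPKTM (limma adjusted p = 1.3e-08), and Ehhadh, the bifunctional enzyme, by 1.39 ± 0.16 from 728 to 227. Acaa1b showed no overlap. In mitochondria Acadl fell by 0.72 ± 0.12, whereas Cpt1a, the entry step (-0.07, interval -0.33 to 0.19), Acadvl (-0.07, -0.22 to 0.08) and Hadha (-0.06, -0.34 to 0.23) were at the Control level. Fgf21, a hormone that PPARα also drives, rose by 1.55 ± 0.37 from a median of 9.19 to 37.0 RPKTM (limma adjusted p = 0.0027), with 8 libraries above and 1 below Control, and its difference with the macrophage score was 0.31. Over the 22 genes 13 fell, 1 rose and 7 were at the Control level, against 17.5%, 16.8% and 43.2% of all genes. Once the macrophage score was included 3 fell, among them Ehhadh and Acaa1b, and none rose, while the endothelial and stellate score left 2 lower, with Ehhadh no longer called.

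Clock genes repressed by REV-ERB were high at the times when Control was low. Arntl ranged from 4.21 to 119 RPKTM in Control and from 96.7 to 141 in RevScapTKO and rose by 1.60 ± 0.15 (limma adjusted p = 5.9e-08). At ZT10 it measured 6.49 ± 3.60 RPKTM (SD, n = 3) in Control and 110 ± 11.8 in RevScapTKO, and at ZT22 116 ± 3.52 and 125 ± 20.2. The difference was 3.99 ± 0.30 at ZT10 (limma adjusted p = 9.4e-09) and 0.10 ± 0.30 at ZT22 (limma adjusted p = 0.9). Npas2, a partner of BMAL1, rose by 3.54 ± 0.34 (limma adjusted p = 8e-08), from 0.352 ± 0.610 to 45.2 ± 5.92 RPKTM at ZT10 and from 42.2 ± 15.9 to 52.6 ± 24.3 at ZT22. Clock, the other partner, rose by 0.61 ± 0.16 (limma adjusted p = 0.0052). The calls of Arntl and Npas2 held with either covariate, while that of Clock did not, at 0.85 with the macrophage score (limma adjusted p = 0.053).

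Nfil3, a repressor of D-box genes that REV-ERB represses, rose by 1.15 ± 0.13 (limma adjusted p = 1.6e-06) from a median of 82.1 to 183 RPKTM, with 9 libraries above Control, and its level by time was 42.4 ± 11.6 in Control and 192 ± 54.0 in RevScapTKO at ZT10. Cry1, a repressor of BMAL1 and CLOCK, rose by 0.80 ± 0.15 (limma adjusted p = 0.00041), at ZT4 from 24.9 ± 8.78 to 102 ± 24.6 RPKTM. Bhlhe40, another repressor, fell by 1.35 ± 0.14 (limma adjusted p = 2e-07) with all 12 libraries below Control.

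**Figure D3:**
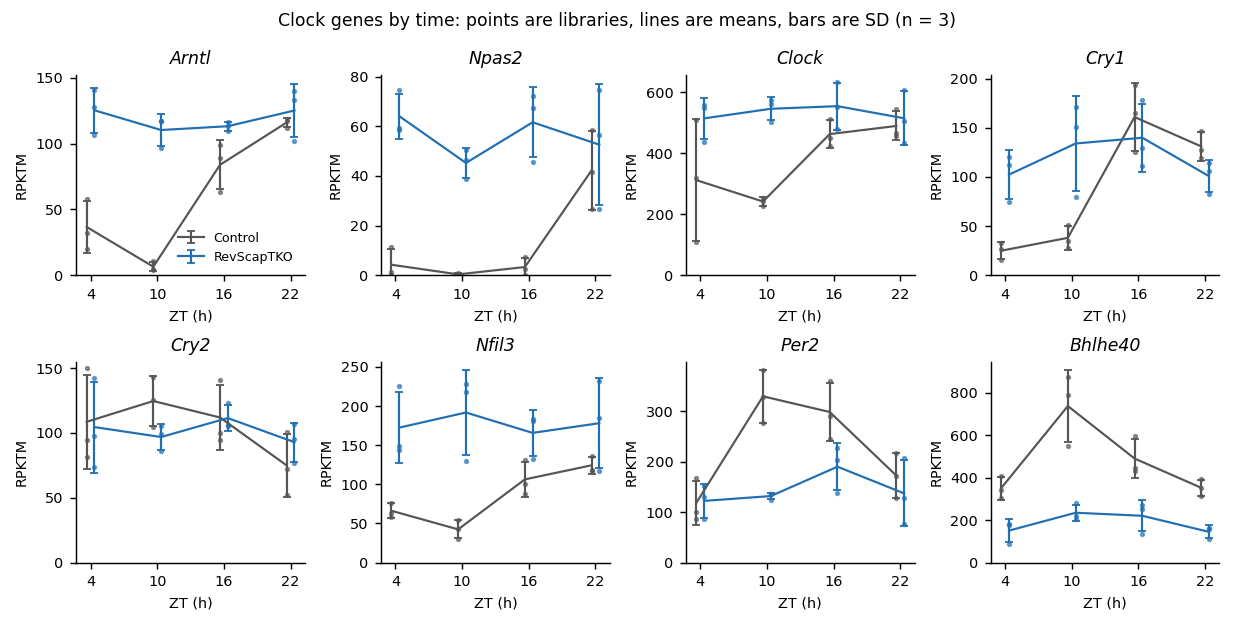
Levels of 8 clock genes in RPKTM against ZT in hours, Control and RevScapTKO, with points for libraries, lines through means and bars of 1 SD (n = 3). Arntl, Npas2, Cry1 and Nfil3 are flat and high in RevScapTKO where Control dips at ZT4 and ZT10, and Bhlhe40 is lower in RevScapTKO at each time.

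The Nfil3 promoter is shown with its 1 match to the ROR response element letters TAGGTCA in capitals (TGACCTA on the opposite strand), at chr13:53076409-53076658 on the minus strand.
Nfil3: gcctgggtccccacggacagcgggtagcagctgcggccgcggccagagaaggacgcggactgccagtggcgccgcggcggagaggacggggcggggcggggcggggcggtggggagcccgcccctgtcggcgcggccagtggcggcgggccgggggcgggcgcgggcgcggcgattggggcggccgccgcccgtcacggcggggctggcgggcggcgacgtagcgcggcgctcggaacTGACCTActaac
This match ended 6 bases before the transcript start and overlapped no CCAAT box. These letters were in 1.81% of all promoters, in 1 of 7 of the clock output factors and in none of the 5 clock activators and RORs or the 5 PER and CRY genes in the same window.

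The rest of the clock lay closer to Control. Per1 (0.02, interval -0.35 to 0.39), Cry2 (-0.01, -0.29 to 0.26), Rora (-0.11, -0.38 to 0.16) and Tef (0.13, -0.26 to 0.52) were at the Control level by mean. Per2 fell by 0.58 ± 0.15 (limma adjusted p = 0.0067), at ZT10 from 329 ± 52.6 to 132 ± 6.81 RPKTM, and Hlf fell by 0.37 ± 0.12. Bhlhe41 rose by 0.88 ± 0.28. Per3, Dbp and Ciart were undecided, with differences of -0.05, 0.45 and -0.21. None of Per2, Hlf and Bhlhe41 was called with either covariate, while Nfil3, Cry1 and Bhlhe40 were, although Cry1 and Hlf were not called without ZT4, and Bhlhe41 was not called without the pair of libraries named above.

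Rhythm was tested apart from the mean, as a change in the 24 h cosine and sine terms. Only 11 of 13119 genes (0.0838%) were called, with 798 at an unadjusted p under 0.05, and all 11 had a smaller fitted peak-to-trough difference in RevScapTKO. For Arntl it was 4.26 log2 units in Control and 0.22 in RevScapTKO (limma adjusted p = 0.00013), for Cry1 3.23 and 0.57, for Nr1d1 5.53 and 1.14 and for Nr1d2 2.90 and 0.39. Outside the clock, Loxl4, a lysyl oxidase relative, fell from 3.34 to 0.69, the choline kinase gene Chka from 2.92 to 0.84, the decarboxylase gene Ddc from 1.88 to 0.28 and the lactate transporter gene Slc16a1 from 1.26 to 0.45. Slc16a1 was at the Control level by mean (0.16, limma adjusted p = 0.19), and Ddc rose by 0.40 ± 0.11. The uncharacterised Gm31508 went from 3.51 to 0.88, and all 12 of its RevScapTKO libraries, at 70.7 to 163 RPKTM, lay above the 12 Control libraries, at 5.97 to 70.3. Other clock genes with flat profiles by eye, among them Npas2 (5.02 and 0.13) and Nfil3 (1.70 and 0.12), did not pass (limma adjusted p = 0.12 and 0.2). With 4 times and 3 libraries each, the peak time cannot be placed more finely than the 6 h between samplings. Without RevScapTKO ZT4 replicate 2 and ZT22 replicate 2 the count was 7.

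Among carbohydrate genes more fell than rose. Of 11 gluconeogenesis and glycogen genes 4 fell, 1 rose, 2 were at the Control level and 4 were undecided (median -0.30). Over all genes these shares were 17.5%, 16.8%, 43.2% and 22.5%. Pck1, which encodes the cytosolic PEP carboxykinase, rose by 0.60 ± 0.18 from a median of 5270 to 6360 RPKTM (limma adjusted p = 0.013), Fbp1 fell by 0.65 ± 0.16 from 1835 to 1271, and Pcx, pyruvate carboxylase, was at the Control level (-0.06, interval -0.26 to 0.14). G6pc was undecided at -0.35. Without ZT4 2 of the 11 fell and 1 rose, and without the pair of libraries 2 fell and 2 rose. Of 14 genes of glycolysis and fructose use, 6 fell and none rose (median -0.46, against -0.03 over all genes). Pklr, the liver pyruvate kinase, fell most, by 1.30 ± 0.28 from 669 to 246 RPKTM (limma adjusted p = 0.0015). The glucose transporter gene Slc2a2 was at the Control level (-0.03, -0.31 to 0.26). In the fit with the macrophage score 1 of these 25 genes was called, Eno1, which was lower, and with the endothelial and stellate score none was.

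Insulin and growth factor signalling was mostly at the Control level, 7 of 12 genes, against 43.2% of all genes. Igf1, the growth factor made by hepatocytes, ranged from 1570 to 2519 RPKTM in Control and from 1549 to 2921 in RevScapTKO (0.01, interval -0.23 to 0.26), and Foxo1 (-0.06, -0.32 to 0.20) and Stat5b (0.07, -0.12 to 0.26) lay as close. Akt2 was the 1 gene called, lower by 0.27 ± 0.08, inside the 1.5-fold margin and not called with either covariate or without ZT4. Irs2 and Insr were undecided. Insr stood at 209 RPKTM in RevScapTKO ZT16 replicate 2 and at 930 to 1763 in the other 11 libraries.

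Bile acid genes went both ways, 5 of 17 lower, 4 higher and 6 at the Control level. Over all genes these shares were 17.5%, 16.8% and 43.2%. Cyp27a1, the first enzyme of the alternative pathway, fell by 0.99 ± 0.18 from a median of 2295 to 1231 RPKTM with no overlap (limma adjusted p = 0.00029). Slc10a1, the uptake carrier NTCP, fell by 0.79 ± 0.23 from 1724 to 1205, and Nr0b2, which encodes the repressor SHP, by 1.18 ± 0.31 from 101 to 39.4. Abcb4, the phospholipid exporter of bile, rose by 0.98 ± 0.18 from 1265 to 2224, with 11 libraries above Control. Cyp7b1 rose by 1.16 ± 0.24 from 679 to 2057 (limma adjusted p = 0.00096), kept this call with the macrophage score at 1.65 but not with the endothelial and stellate score at 1.62 (limma adjusted p = 0.0503), and showed no rise at ZT4, where the difference was -0.09. The bile acid receptor gene Nr1h4 (-0.11, interval -0.29 to 0.08), the carrier gene Slco1b2 (-0.12, -0.35 to 0.11) and Hsd3b7 (0.02, -0.23 to 0.27) were at the Control level. Cyp7a1, the rate-limiting enzyme of the classic pathway, was undecided with medians of 1449 and 924 RPKTM. Without ZT4 3 genes fell and 3 rose, with the macrophage score Cyp7b1 alone of the 17 was called, with the endothelial and stellate score none was, and Slc10a1 read 0.04 with the former.

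Among genes of nitrogen metabolism more fell than rose by mean. Of 21 amino acid catabolism genes 12 fell, 2 rose and 5 were at the Control level (median -0.34). Of 7 urea cycle genes 4 fell and 3 were undecided (median -0.41). Over all genes 17.5% fell, 16.8% rose, 43.2% were at the Control level and 22.5% were undecided (median -0.03). At single times 8 amino acid genes were called lower at ZT4 (against 7.49% of all genes) and none at ZT10, ZT16 or ZT22. Sds, serine dehydratase, fell by 1.48 ± 0.29 from a median of 275 to 137 RPKTM, Haao of the kynurenine pathway by 0.97 ± 0.14 and Prodh, proline dehydrogenase, by 0.87 ± 0.15. Kynu, kynureninase, rose by 0.79 ± 0.12 from 676 to 1180 RPKTM (limma adjusted p = 5.4e-05), and Gldc of glycine cleavage by 0.59 ± 0.10. Nags, which makes the activator of the urea cycle, fell by 0.62 ± 0.09 and Asl by 0.52 ± 0.14. Uroc1 (-0.06, interval -0.26 to 0.13) was at the Control level. With the macrophage score Kynu and Gldc were still higher and Nags still lower, and none of the other 25 genes was called. The endothelial and stellate score left none of the 28 called, and without ZT4 6 amino acid genes fell and 3 rose.

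In the methionine cycle and phosphatidylcholine synthesis 5 of 15 genes fell, 2 rose and 7 were at the Control level. The shares over all genes were 17.5%, 16.8% and 43.2%. Chka rose by 1.53 ± 0.18 from a median of 189 to 435 RPKTM (limma adjusted p = 1.4e-06), and Cbs, cystathionine beta-synthase, by 0.66 ± 0.09 from 1081 to 1704 with 11 libraries above Control. Ahcy, which clears S-adenosylhomocysteine, fell by 0.99 ± 0.14 from 712 to 397, and Pcyt2 of the phosphatidylethanolamine branch by 0.59 ± 0.08 from 947 to 633. Cept1, Etnk1 and Bhmt2 were at the Control level, with differences between -0.04 and 0.01. Chka, Cbs and Pcyt2 kept their calls with the macrophage score, the last with either.

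Drug-metabolising P450 genes did not move as a block, with 6 of 16 lower, 1 higher, 3 at the Control level and 6 undecided. Over all genes these shares were 17.5%, 16.8%, 43.2% and 22.5%. Cyp2a5, a coumarin hydroxylase, ranged from 578 to 2852 RPKTM with a median of 1619 in Control and from 5836 to 41798 with a median of 10022 in RevScapTKO. All 12 libraries lay above Control, and it rose by 2.96 ± 0.28 (limma adjusted p = 7.5e-08), with calls under either covariate. Cyp3a13 fell by 1.41 ± 0.11 from 822 to 316 with no overlap (limma adjusted p = 3.9e-09). The sensor genes Nr1i2 (PXR; -0.05, interval -0.30 to 0.20) and Ahr (-0.07, -0.33 to 0.18) were at the Control level, while Nr1i3, which encodes CAR, fell by 0.37 ± 0.12. The counts of 6 lower and 1 higher became 2 and 1 with the macrophage score, and 1 and 1 with the endothelial and stellate score.

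Genes that differ between male and female liver were read because growth hormone timing sets them. Of 16 male-biased genes 4 rose, 3 fell, 2 were at the Control level and 7 were undecided. The shares over all genes were 16.8%, 17.5%, 43.2% and 22.5%. Mup20, a urinary protein (mm9 chr4:61711269-61715151, minus strand), ranged from 827 to 2221 RPKTM in Control and from 2496 to 12270 in RevScapTKO and rose by 2.53 ± 0.20 (limma adjusted p = 2.8e-09) with no overlap, while Cyp4a12a fell by 3.77 ± 0.20 from a median of 430 to 29.8 with no overlap. Both kept their calls with either covariate, and of the rest of the list Cyp7b1 alone was called, higher, with the macrophage score. Of 9 tested female-biased genes 3 rose and 4 fell. Cyp2a4, a steroid hydroxylase and a near copy of Cyp2a5, ranged from 2.16 to 21.3 RPKTM in Control and from 41.5 to 13136 in RevScapTKO and rose by 6.36 ± 0.91 (limma adjusted p = 2.5e-05), although with the macrophage score the difference was 3.06 (limma adjusted p = 0.17). Cyp17a1 rose by 1.44 ± 0.36 from 79.4 to 291. Of the female-biased genes 1 was higher and 3 lower with the macrophage score, and none and 2 with the endothelial and stellate score. Mup and Cyp2a genes are near copies of each other, so reads may have been shared.

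The RevScapTKO libraries were uneven in some genes, which were picked out after their values were seen. In the order ZT4, ZT10, ZT16 and ZT22, with replicates 1 to 3 at each, Cyp2a4 measured 225, 13136 and 6031, then 67.8, 11707 and 248, then 41.5, 2466 and 1929, and then 50.5, 12963 and 148 RPKTM. Mki67, a proliferation marker, measured 50.8, 1030 and 111, then 19.8, 246 and 38.1, then 18.6, 58.7 and 198, and then 19.9, 257 and 39.1 RPKTM. Mup3, abundant in adult male liver, measured 11909, 610 and 1861, then 16763, 3141 and 13829, then 17625, 8046 and 8942, and then 14113, 1478 and 11707 RPKTM. ZT4 replicate 2 thus had the highest Cyp2a4 and Mki67 and the lowest Mup3, and ZT16 replicate 1 the reverse. Clec4f, the Kupffer cell gene, was at 252 RPKTM in the former and 553 in the latter, within a range of 223 to 1704. Over its 12 libraries Mup3 was undecided, at -0.99 (limma adjusted p = 0.063).

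Glutathione genes went both ways. Of 19 genes 7 rose, 4 fell and 4 were at the Control level, against 16.8%, 17.5% and 43.2% of all genes. Gstm3 rose by 3.46 ± 0.48 from a range of 12.1 to 44.6 RPKTM to 65.0 to 2274 with no overlap, Srxn1, an NRF2 target, by 1.90 ± 0.31 and Gstm1 by 1.53 ± 0.24. Gstt1 fell by 2.14 ± 0.19 from a median of 419 to 93.1 RPKTM (limma adjusted p = 2.9e-08) and Gsta3 by 1.23 ± 0.18 from 2979 to 1272. Gclm (0.03, interval -0.18 to 0.24), Gss (0.18, -0.13 to 0.48) and Gsr (0.06, -0.40 to 0.53), which act in glutathione synthesis and reduction, were at the Control level. Other genes of synthesis and of the transferase families were tested and are not named here. With either covariate Gstt1 alone was called.

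Stress responses were modest. Of 20 genes of the unfolded protein and integrated stress response 6 rose, 1 fell and 8 were at the Control level (median 0.24). Over all genes these shares were 16.8%, 17.5% and 43.2%. The chaperones Hspa5 and Hsp90b1 rose by 0.59 ± 0.12 and 0.54 ± 0.09, from medians of 4008 and 4045 RPKTM to 6967 and 6315, and Trib3 rose by 1.15 ± 0.22 at a low level. Atf4 fell by 0.56 ± 0.09 from 268 to 177, and Xbp1 (-0.14, interval -0.39 to 0.11), Dnajc3 and Herpud1 were at the Control level. Under the macrophage score covariate none of the 20 was called, and under the other 1 was, higher. Among 10 tested heat shock and cold-inducible genes 2 rose, 2 fell and 5 were at the Control level, among them Hsp90ab1 (0.16, limma adjusted p = 0.12), and in the same fits none and 1 of the 10 were called.

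Acute phase genes were lower where they changed most. Of 21 genes 7 fell, 2 rose and 7 were at the Control level, against 17.5%, 16.8% and 43.2% of all genes. Orm1, an orosomucoid, ranged from 761 to 3493 RPKTM with a median of 977 in Control and from 51.4 to 367 with a median of 173 in RevScapTKO and fell by 2.74 ± 0.27 (limma adjusted p = 8.8e-08). Saa1, serum amyloid A, had medians of 214 and 43.2 RPKTM and fell by 2.59 ± 0.38 (limma adjusted p = 3.5e-05). Neither gene overlapped between the groups, both kept the call with either covariate, and both belong to families of close copies. Itih3 and Cp, which encodes ceruloplasmin, rose by 0.91 ± 0.14 and 0.78 ± 0.13, and neither was called with either covariate. The macrophage score left 4 of the list lower and the endothelial and stellate score 2. The signal transducer gene Stat3 was at the Control level (-0.06, interval -0.28 to 0.15). Complement and coagulation genes stayed closest to Control of the lists over 10 genes, 16 of 22 at the Control level, with Plg (-0.04, -0.23 to 0.14), Masp1 and Cfi the tightest. Only Kng1, F7 and F9 fell, by 0.43 ± 0.12, 0.65 ± 0.23 and 0.35 ± 0.14, and none of them was called with a covariate, while without the pair of libraries named above 1 of the 22 fell and 3 rose.

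Of 12 hepatocyte transcription factor genes 4 fell, against 17.5% of all genes, none rose, and 6 were at the Control level, against 43.2% of all genes (median -0.25). Hnf4a ranged from 1164 to 2607 RPKTM in Control and from 1262 to 2017 in RevScapTKO (-0.01, interval -0.22 to 0.19), and Prox1 (0.00, -0.21 to 0.22) and Nr5a2 (-0.10, -0.26 to 0.06) lay as close. Cebpb and Cebpa fell by 0.75 ± 0.14 and 0.72 ± 0.12, and Foxa2 by 0.56 ± 0.21. None of the 12 was called under either covariate.

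Proliferation, fetal, immune and matrix genes were mostly higher, together with the markers of other cells. Of 17 tested cell cycle and p53 genes 11 rose and 2 fell, against 16.8% and 17.5% of all genes. Among those that rose were Mki67 (2.91 ± 0.50), Top2a (2.72 ± 0.51) and Cdk1 (medians of 1.90 and 5.57 RPKTM). Pcna was at the Control level (-0.16, interval -0.52 to 0.20). At single times 10 of the 17 were called higher at ZT4 (against 7.71% of all genes), 1 at ZT10 and none at ZT16 or ZT22. Without the pair of libraries named above 8 rose, and without ZT4 also 8. Cdkn1a, which encodes p21 and is a REV-ERB target, rose by 2.39 ± 0.31 from a median of 19.5 to 59.4 RPKTM and was the 1 gene of this list still higher with the macrophage score. With the endothelial and stellate score none of the 17 was called, Cdkn1a at 2.01 (limma adjusted p = 0.063). Sox9, a progenitor and cholangiocyte factor, ranged from 8.81 to 27.2 RPKTM in Control and from 32.0 to 65.4 in RevScapTKO, with no overlap, and rose by 1.30 ± 0.13 (limma adjusted p = 1.8e-07). It was called with either covariate, and the cholangiocyte keratin genes Krt19 and Krt7 were under the filter, at or below 3.71 RPKTM in every library. Ly6d rose by 3.68 ± 0.61 from a Control maximum of 0.853 RPKTM, and with the macrophage score its difference was 1.37 (limma adjusted p = 0.4). Of 9 tested fetal and progenitor genes 6 rose and 1 fell, against 16.8% and 17.5% of all genes. With either covariate Sox9 alone was higher, with 1 gene lower under the macrophage score.

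Interferon-stimulated genes rose in 15 of 16 cases (median 1.26), 6 of 10 tested cytokine and chemokine genes rose (median 0.86), and so did 9 of 10 collagens (median 1.02), against 16.8% of all genes higher. Rsad2, an antiviral enzyme, rose by 1.80 ± 0.23 from a median of 40.7 to 116 RPKTM (limma adjusted p = 5.5e-06), the chemokine Cxcl10 by 1.67 ± 0.33 and Col3a1 by 1.47 ± 0.23 from 47.8 to 153. Beside these counts stand the 12 of 12 macrophage and 6 of 8 stellate markers. Once the macrophage score was included, and equally with the endothelial and stellate score, none of the 36 genes was called, and the medians of the 3 lists were 0.34, 0.03 and 0.53 with the former. The part of other cells in these rises was not tested beyond that.

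**Figure D4:**
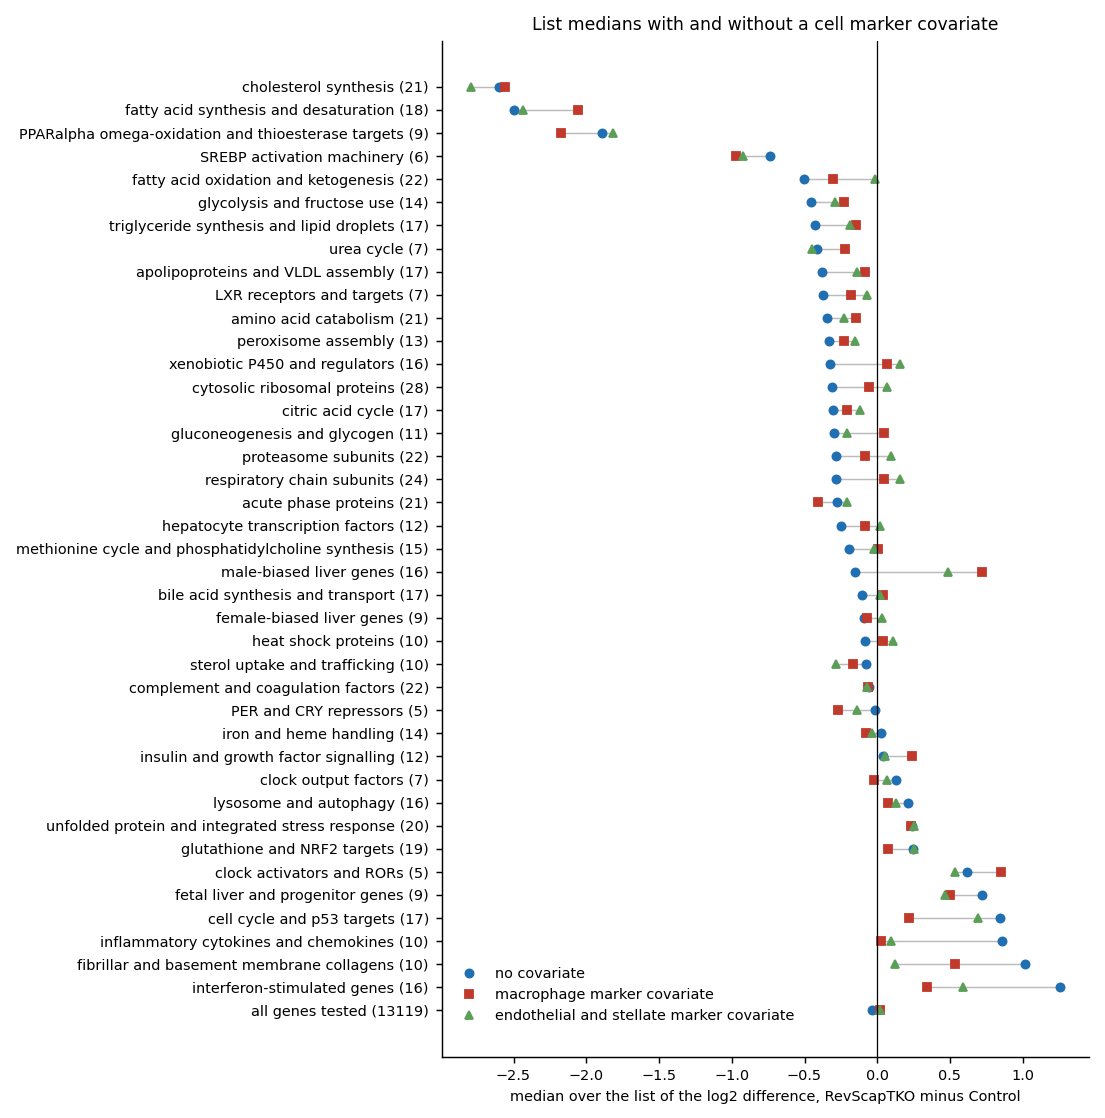
Median log2 difference, RevScapTKO minus Control, of each pathway list without a covariate, with the macrophage marker score and with the endothelial and stellate score. The median of cholesterol synthesis lies between -2.79 and -2.56 in the 3 fits, while that of interferon-stimulated genes goes from 1.26 to 0.34 with the macrophage score.

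Housekeeping machinery drifted slightly down. No gene rose among 24 respiratory chain subunits, 17 citric acid cycle genes, 28 tested ribosomal proteins, 22 proteasome subunits and 13 peroxisome assembly genes, while 7, 10, 8, 9 and 8 fell and 11, 7, 9, 9 and 5 were at the Control level. Over all genes 17.5% fell, 16.8% rose and 43.2% were at the Control level. The list medians lay between -0.34 and -0.28. With the macrophage score at most 1 gene of any of these lists fell, namely Idh2 and Psmb5, and with the endothelial and stellate score none did. Without ZT4 the counts of genes lower, in the order of the lists above, were 2, 9, 4, 5 and 4. Without the pair of libraries named above they were 3, 9, 3, 9 and 7. Psmb5, a catalytic proteasome subunit, fell by 1.10 ± 0.15 from a median of 66.6 to 29.9 RPKTM (limma adjusted p = 1.6e-05). Rplp1 fell by 1.08 ± 0.17 and Dlat of the pyruvate dehydrogenase complex by 0.76 ± 0.14. Uqcrc2 (-0.16, interval -0.36 to 0.03), Mdh2 (-0.07, -0.26 to 0.11) and Psmd2 (-0.01, -0.21 to 0.19) were at the Control level. Ribosomal protein genes have many processed copies, so their values are uncertain.

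Lysosome genes showed 5 of 16 higher and 4 lower, against 16.8% and 17.5% of all genes. The proteases Ctsl and Ctsb rose by 0.94 ± 0.15 and 0.55 ± 0.12, the former with 11 libraries above Control, whereas Map1lc3a of autophagosomes fell by 0.99 ± 0.16 and Atg7 by 0.39 ± 0.12. Given either covariate none of the 16 was called. Of 14 iron and heme genes 8 were at the Control level, against 43.2% of all genes. Among these 8 were Hfe (-0.10, -0.30 to 0.10) and Hjv (-0.05, -0.24 to 0.15). The heme synthesis gene Alas1 rose by 0.85 ± 0.25, with a call under either covariate but none without ZT4, and the later enzymes Cpox and Urod fell by 0.47 ± 0.12 and 0.49 ± 0.12 and were not called with either covariate.

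Over all genes, the largest rises that were called with the same sign at all 4 times and with the macrophage score were read by rule. Abcc12, an ABC transporter (mm9 chr8:89028740-89090489, minus strand), was at a median of 0 RPKTM in Control, at most 3.68, and ranged from 1.40 to 124 with a median of 23.3 in RevScapTKO, with 11 libraries above Control and a difference of 4.32 ± 0.49 (limma adjusted p = 1.1e-06). Loxl4 (mm9 chr19:42666769-42687296, minus strand) ranged from 10.1 to 159 RPKTM in Control and from 271 to 888 in RevScapTKO and rose by 4.13 ± 0.19 (limma adjusted p = 2e-13) with no overlap. Obp2a, a lipocalin, rose by 3.86 ± 0.72, Npas2 by 3.54 ± 0.34 and Moxd1, a monooxygenase, by 3.38 ± 0.84, the last from a median of 0.463 to 34.7 RPKTM with wide overlap. Abcc12 and Moxd1 were not called with the endothelial and stellate score (limma adjusted p = 0.12 and 0.15). Among the 5 largest falls were Scd1, Sqle, Fads1 and Fdps, described above. All 12 RevScapTKO libraries lay above all 12 Control libraries for 30 genes (0.229%) and below them for 102 (0.777%).

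By time of day, 1994 genes were called at ZT4 (15.2%), 419 at ZT10 (3.19%), 298 at ZT16 (2.27%) and 285 at ZT22 (2.17%), each from 3 libraries against 3. The ZT4 count lay between 654 and 3365 when single libraries were left out and was 896 without RevScapTKO ZT4 replicate 2 and ZT22 replicate 2, so the order of the counts is not firm. Cholesterol synthesis genes were lower in 18, 18, 19 and 18 of 21 cases at the 4 times (against 7.49%, 1.81%, 1.72% and 1.59% of all genes), and fatty acid genes in 12, 14, 12 and 9 of 18. Fasn, whose Control level peaked at ZT10 at 17368 ± 4853 RPKTM (SD, n = 3), measured 180 ± 68.2 there in RevScapTKO, a difference of -6.61 ± 0.54 against -4.11 ± 0.54 at ZT22, and its test for a changed rhythm was not passed (limma adjusted p = 0.65). Macrophage markers were called higher in 11 of 12 cases at ZT4 (against 7.71% of all genes) and in none at the later times (against 1.38%, 0.556% and 0.579%), when their Control level was higher. The difference between times was not tested beyond the rhythm test.

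RevDKO hepatocytes were set beside, with the same Control libraries, in a fit of all 36 libraries. In RevDKO 262 genes rose (2%) and 328 fell (2.5%) against Control, and RevScapTKO against RevDKO gave 1800 higher (13.7%) and 1671 lower (12.7%). For Scd1 the difference was 0.10 in RevDKO (limma adjusted p = 0.9) and -8.81 in RevScapTKO, and RevScapTKO minus RevDKO was -8.91 (limma adjusted p = 1.8e-22). Of the 21 cholesterol synthesis genes 1 fell in RevDKO, Pmvk, and 20 were lower in RevScapTKO than in RevDKO. Of the 9 genes of the omega-oxidation and thioesterase list all 9 fell in RevDKO, with a median of -1.41, and 3 were lower still in RevScapTKO, Cyp4a10, Cyp4a14 and Acot1. Cyp4a10, for example, read -1.73 in RevDKO and -4.49 in RevScapTKO.

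**Figure D5:**
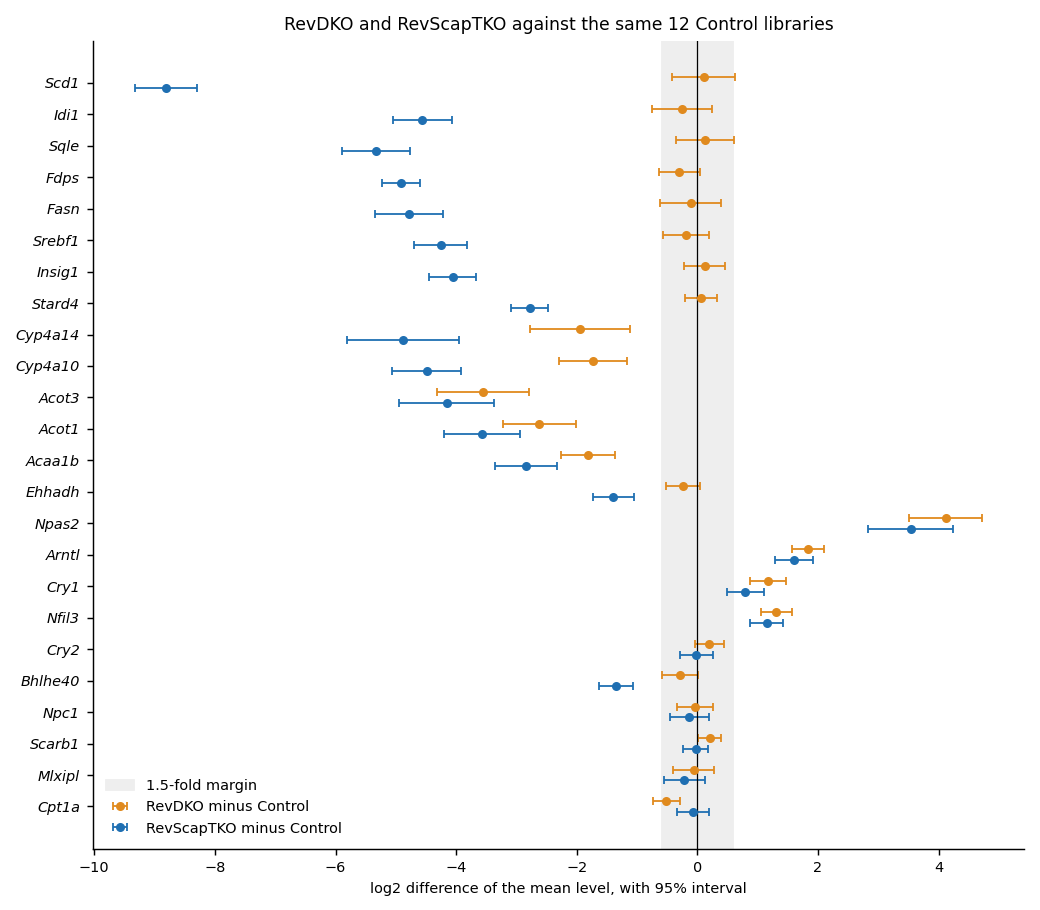
Log2 difference from Control with its 95% interval for 24 genes, RevDKO (36-library fit) and RevScapTKO (24-library fit), with the 1.5-fold margin shaded. Arntl reads 1.83 in RevDKO and 1.60 in RevScapTKO, whereas Scd1 reads 0.10 and -8.81.

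Clock genes changed in both genotypes. Arntl read 1.83 in RevDKO and 1.60 in RevScapTKO, and the difference between the genotypes was -0.23 (limma adjusted p = 0.19). Npas2 read 4.12 and 3.54, a difference that did not pass the test (limma adjusted p = 0.15). Loxl4 read 4.37 and 4.13. Bhlhe40 read -0.29 in RevDKO (limma adjusted p = 0.31) and -1.35 in RevScapTKO, and was lower in RevScapTKO than in RevDKO by 1.06 on the log2 scale (limma adjusted p = 2.3e-06). Among the lists higher in RevScapTKO, none of the 12 macrophage markers, 16 interferon-stimulated genes or 10 collagens was called in RevDKO, and 12, 13 and 8 of them were higher in RevScapTKO than in RevDKO. Cdkn1a and Sox9 rose in RevDKO as well, by 2.10 and 1.02. A p that misses the threshold does not show that the genotypes were alike.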

How the data were processed

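Hepatocyte libraries labelled Control, RevDKO and RevScapTKO, 12 of each, were read from 1 table of the whole series, and groups, times and replicate numbers were taken from the sample labels. Per the study's methods and the file headers, the authors sequenced ribosome-depleted total RNA, aligned it with STAR to mm9, and counted it over RefSeq transcripts with Homer. The deposited values are RPKM-type values scaled to a larger number of reads (RPKTM) that the authors quantile normalised, and all 36 libraries hold the identical set of values, so depth is unknown and no counting error can be given. Versions and the use of strand in counting are not given in the sources used here. Quantile normalisation sets the same distribution in each library, so a change in the total RNA of a cell cannot be seen.

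For each gene symbol the transcript of highest mean over the 24 compared libraries was kept. Of 25095 gene symbols in 42322 transcripts, 13119 exceeded 5 RPKTM in at least 3 of these libraries and were tested. Values were analysed as log2(RPKTM + 1) in limma 3.58.1 (R 4.3.3) with 1 mean for each genotype and time, and contrasts gave the mean difference over 4 times, the difference at each time and the change in 24 h cosine and sine terms. P-values were adjusted by Benjamini-Hochberg over all genes tested. Tables and figures were made in Python 3.11.15 with pandas 2.3.3 and numpy 2.4.6. The scripts were tested on simulated data with known changes.

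The comparison, the 40 pathway lists and the 10 marker lists were chosen with earlier results of these data known. Genes were named by rule: the targeted genes, all clock and SREBP activation genes, in each other list up to 4 called members in each direction with the same sign at all 4 times and up to 3 at the Control level with the tightest intervals, the 5 largest rises and falls over all genes that were also called with the macrophage score, and the 10 smallest adjusted p for rhythm. Members and markers named beyond this rule, such as Cyp7b1, Mup3, Alas1 and Reln, were chosen after their values were seen. Some genes that the lists and counts include are not reported here by name. Replicate numbers were checked for pairing. Alternatives covered pseudocounts of 0.1 and 10, other filters, every transcript, all 36 libraries, median rescaling, a replicate block, cell marker covariates, a 2-fold margin and leaving out libraries. Leaving out RevScapTKO ZT4 replicate 2 with ZT22 replicate 2, leaving out ZT4 and the alternatives of the RevDKO comparison were chosen after seeing the data.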

Additional observations from a re-analysis of the deposited data

Results flagged for a closer look

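The 24 h rhythm differed between RevScapTKO and Control for 11 genes, by limma's test of the difference in the cosine and sine terms over 12 libraries of each genotype. Adjusted p was 0.000131 for Arntl, 0.00202 for Gm31508, 0.00447 for Loxl4 and likewise 0.00447 for Cry1, and 0.00929 for Ddc. It was 0.0204 for Nr1d2, 0.026 for Slc16a1, 0.0261 for Nr1d1, 0.0333 for Chka and 0.0359 for Blcap, a gene named after its values were seen. The fitted peak-to-trough difference was smaller in RevScapTKO for each of these 10 genes.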

How the results depend on the processing

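The labels of the 200 genes named and tested were compared between fits. A called gene kept its label where it was still called in the same direction. A gene at the Control level kept it where it stayed uncalled with its interval inside the 1.5-fold margin. An undecided gene kept it where it stayed uncalled. So counted, 197 kept the label in a fit of all 36 libraries, 197 with the replicate block, 198 with a pseudocount of 0.1 and 199 with 10. The number was 198 after median rescaling, 180 without ZT4, 113 with the macrophage score and 81 with the endothelial and stellate score. Genes that turned sign were Abcg1 (-0.068 with the endothelial and stellate score, -0.18 with the macrophage score), Slc10a1 (0.003 and 0.041) and, with the endothelial and stellate score alone, Abcg8 (0.09), Cyp2e1 (0.155), Foxa2 (0.067) and Nr1i3 (0.024). With that score Nr1d2 read 0.963 and Scap -0.837, neither called. The covariates differ between the genotypes, and the cause of the lost calls was not tested.

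The 4500 calls became 481 with the macrophage score, 247 with the endothelial and stellate score and 8672 over every transcript. At ZT4 the count of 1994 became 128, 59 and 3800 in the same fits and 896 without the pair of RevScapTKO libraries. At ZT10 (419) it became 242, 162 and 734, and 277 with no filter. At ZT16 (298) it became 171 with the endothelial and stellate score, 523 over every transcript, 166 without 3 libraries and 452 without ZT4. At ZT22 (285) it became 165, 111 and 491, and 485 with all 36 libraries, 160 with no filter, 176 without the pair and 101 without 3 libraries. The rhythm count of 11 became 25 with all 36 libraries, 6 with the endothelial and stellate score, 22 over every transcript, 7 without the pair and 5 without 3 libraries. The share at the Control level was 26.5% with the endothelial and stellate score and 61% with a 2-fold margin. RevScapTKO against RevDKO gave 326 calls with the macrophage score and 440 with the other.

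Leaving out single libraries gave 3919 to 5117 calls by mean, 654 to 3365 at ZT4, 211 to 497 at ZT10, 155 to 523 at ZT16, 138 to 340 at ZT22 and 5 to 24 for rhythm. The Control level share ranged from 39.6% to 45.2%, RevDKO against Control from 480 to 722 and RevScapTKO against RevDKO from 2843 to 4147. Nr1d1 ranged from 1.66 to 1.93, Nr1d2 from 0.859 to 1.03 and Scap from -1.40 to -1.18. Counts moved by over 1.5 times at ZT4 without Control replicates 1 (966) and 2 (689) or RevScapTKO replicates 1 (3365), 2 (783) and 3 (654) of that time. They did so at ZT10 without Control replicates 1 (269), 2 (211) and 3 (230) or RevScapTKO replicate 2 (237), at ZT16 without Control replicates 1 (185), 2 (197) and 3 (155) or RevScapTKO replicates 1 (523), 2 (163) and 3 (166), and at ZT22 without Control replicates 1 (138) and 2 (143) or RevScapTKO replicate 2 (152). For rhythm this held without Control ZT10 replicates 1 (6) and 2 (5), Control ZT4 replicates 1 (24) and 3 (19), RevScapTKO ZT10 replicate 3 (6) or RevScapTKO ZT22 replicates 2 and 3 (6 each). Of the named genes, 6 called genes lost the call and 8 at the Control level left the margin without some single library.

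Same-numbered Control and RevScapTKO libraries correlated at -0.146 to 0.286 in their deviations, over 0.1 in 5 of 12 pairs. At ZT16 all 3 such pairs lay at 0.167 to 0.225 and the pairs of unlike number below 0, whereas at ZT10 and ZT22 none passed 0.1, so the numbers were not taken to pair the libraries. The replicate block gave 4611 calls. The 3 libraries left out together, Control ZT16 replicate 1, Control ZT22 replicate 1 and RevScapTKO ZT22 replicate 3, were planned for high Alb, which does not single them out in this table.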
